A study of Homo sapiens with 6 samples.

Results

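Levels of 10 long noncoding RNAs with a known place in cancer or liver biology (MALAT1, NEAT1, HULC, TUG1, GAS5, SNHG1, OIP5-AS1, DANCR, MIR22HG and MIR17HG) were examined in Huh7 cells that overexpressed a circular RNA. The genes were chosen by symbol. They matched 11 of the 50868 rows of the gene table, because HULC has 2 rows, and all 11 passed the filter on low counts. Huh7 is an established line of human hepatoma cells. A plasmid for overexpression of hsa_circ_0098181, a closed RNA loop made from the SOX5 gene, was given to the cells of 3 libraries, and the control plasmid to those of the other 3. Both were delivered by lipid transfection, total RNA was taken after 48 h, and no other treatment is named. No label states that the libraries of a group came from separate cultures, so p-values measure the spread between these libraries, which may be technical.

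Long noncoding RNAs act as transcripts and not through a protein. MALAT1 and NEAT1 stay in the nucleus, where MALAT1 gathers in speckles of splicing factors and NEAT1 builds the paraspeckle. GAS5, SNHG1 and DANCR are made as hosts: their introns carry small nucleolar RNAs, and the spliced remainder of GAS5 and SNHG1 is short-lived because translating ribosomes expose it to nonsense-mediated decay. MIR22HG and MIR17HG are the primary transcripts of microRNAs, and HULC takes its name from its high level in liver cancer.

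MIR17HG matters here because it is the precursor of miR-18a-3p, the microRNA that the study examined as a partner of the circle. RefSeq (GRCh38.p14) lists 12 mature microRNAs in 6 hairpins within MIR17HG and 2 in MIR22HG. The sequences below are shown to tell these products apart, 5′ to 3′, with the seed (bases 2 to 8) in capitals. miR-17-5p and miR-20a-5p share 1 seed, miR-19a-3p and miR-19b-3p share another, and the miR-18a-3p seed is found in no other product of these hosts. miR-18a-3p lies at chr13:91350797-91350819 on the plus strand, and miR-22-3p at chr17:1713914-1713935 on the minus strand.
miR-18a-3p: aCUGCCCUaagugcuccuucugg
miR-18a-5p: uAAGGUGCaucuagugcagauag
miR-17-5p: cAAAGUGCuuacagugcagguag
miR-20a-5p: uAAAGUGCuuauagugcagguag
miR-19a-3p: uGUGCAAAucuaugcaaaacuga
miR-19b-3p: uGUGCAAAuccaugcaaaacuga
miR-92a-3p: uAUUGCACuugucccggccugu
miR-22-3p: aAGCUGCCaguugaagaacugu

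The complement of the miR-18a-3p seed, AGGGCAG, was searched on the transcript strand in the longest GENCODE 29 transcript of each gene, to show which of these RNAs hold a candidate match. For HULC, only the transcript of its 240-base row could be searched. The letters occurred 7 times in 6 of the 10 genes: MALAT1, NEAT1, TUG1, OIP5-AS1, DANCR and MIR22HG. For comparison, the longest transcript of every gene was taken where its length was within a factor of 0.8 of the member's, either way. Of these, 58.9% held a match at the length of MALAT1, 87.5% at that of NEAT1, 54.7% at that of TUG1, 59.4% at that of OIP5-AS1, 30.1% at that of MIR22HG and 10.5% at that of DANCR. A match of this kind is therefore common in long RNAs and less so in DANCR, whose transcript has 904 bases. The 2 sites of NEAT1 and that of MIR22HG are not printed. 1 NEAT1 site and the MIR22HG site had the longest further stretch of complementarity, 6 bases, against 3 or 4 at the sites printed. 4 of the sites are given with their surroundings, the seed match in capitals. They lie in exon 1 of 1 of MALAT1 (chr11:65500960-65500966), exon 1 of 3 of TUG1 (chr22:30971249-30971255), exon 4 of 4 of OIP5-AS1 (chr15:41299868-41299874) and exon 3 of 3 of DANCR (chr4:52713688-52713694), all on the plus strand.
MALAT1: atcttgtctgaagcttttgAGGGCAGactg
TUG1: gactattcccttttcctaaAGGGCAGagac
OIP5-AS1: taaaatatttctttttttgAGGGCAGctac
DANCR: tgacaatgctggtggcaacAGGGCAGtgta

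OIP5-AS1, also called Cyrano, is known for an extensive pairing site for miR-7. Of the members it had the log2 fold change furthest from 0 (-0.68), with an interval that crossed 0 (edgeR adjusted p 0.797). The complement of the miR-7-5p seed, GTCTTCC, occurred 3 times in its 8829-base transcript, and 48.1% of transcripts of near length held it. DANCR was the only other gene of the 10 with these letters, at 1 site, beside 7.68% of transcripts near its length. Only 1 of the 3 sites in OIP5-AS1 was accompanied by a long further stretch of complementarity, 14 bases in a row, and it lies in exon 4 at chr15:41300592-41300598. The microRNA and this site are printed with seed and seed match in capitals.
miR-7-5p: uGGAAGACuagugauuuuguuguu
OIP5-AS1: gaacaacaaaatcaccaatGTCTTCCattt

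Library totals ran from 11130902 to 14138262 counts, and the 11 rows together held 0.0918% to 0.109% of them. SOX5, the host of the circle, gave 1905, 2396 and 2012 CPM with overexpression and 41.8, 34.4 and 31.3 CPM in the controls, so every library matched its label. These are gene counts, which do not part the circle from linear SOX5 transcripts. CPM are read counts scaled to a common library size by the TMM method. Control replicate 1 stood apart in its mitochondrial share, with 9.29% of its counts from mitochondrial genes against 6.32% to 7.04% in the other 5 libraries. It had the highest CPM of all libraries for 5 of the 11 rows and the lowest for 2. Other libraries were often at an extreme too: overexpression replicate 2 was highest for 2 rows and lowest for 5. Overexpression replicate 1 was highest for 4 and lowest for 1. All 10 hepatoma markers were measured, with AFP, the fetal serum protein of hepatoma cells, at 10801 to 13276 CPM and ALB at 4365 to 5843 CPM. The lipoprotein genes APOA2 and APOB had an unadjusted p under 0.05, with log2 fold changes of 0.25 and -0.39 and an edgeR adjusted p of 0.797 for both. Of 10 markers of fibroblasts, endothelium and blood cells, 5 passed the filter and CDH5 was at 0 in every library. PECAM1, COL3A1 and CD68 were the most abundant of them. The summed level of all 10 was 74.9 to 77.9 CPM with overexpression and 67.5 to 85.4 CPM in the controls.

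None of the 11 rows passed an adjusted p of 0.05 in edgeR's quasi-likelihood test over 15055 genes, where 0.0399% of all genes did (4 higher and 2 lower). None had an unadjusted p under 0.05 either, against 5.50% of all genes, and DESeq2 also gave 0 at both thresholds. The groups were fully separate in 1 row, that of MALAT1, against 12.9% of all genes. 7 rows had a positive and 4 a negative log2 fold change, with a median of 0.053 beside 0.0023 over all genes tested. In bulk RNA, fewer cells with a transcript and less of it per cell cannot be told apart. Of the 11 intervals at 95%, only those of OIP5-AS1 and MIR22HG reached a 2-fold difference.

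**Figure D1:**
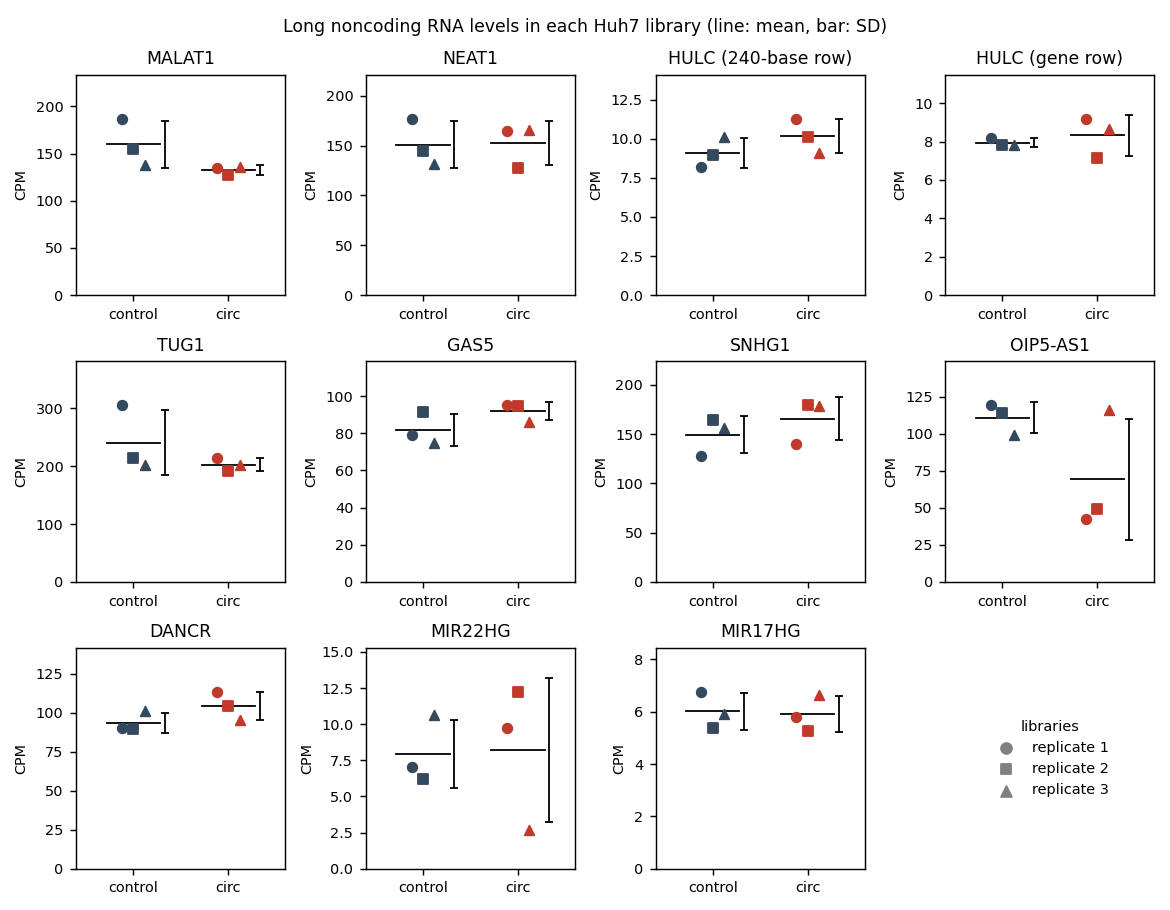
Level of each long noncoding RNA in CPM (vertical axes from 0) in the 3 control and 3 hsa_circ_0098181 libraries (circ), with the mean as a line and the SD as a bar. OIP5-AS1 sits at 42.3 and 49.0 CPM in 2 overexpression libraries and at 116 in replicate 3, and MIR22HG is lowest, at 2.67 CPM, in that library.

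**Figure D2:**
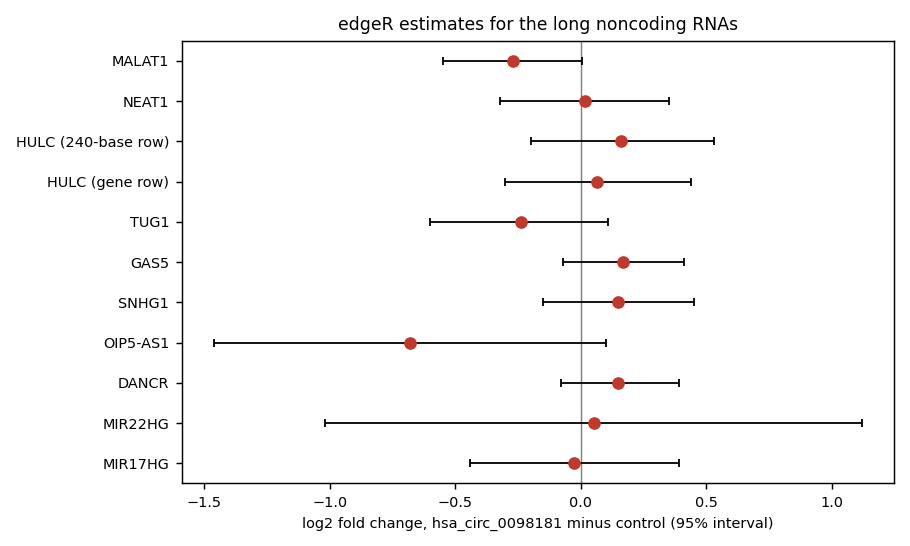
edgeR log2 fold change of each row, hsa_circ_0098181 minus control, with its 95% interval. Every interval crosses 0, that of MALAT1 by the least (upper bound 0.0034), and those of OIP5-AS1 and MIR22HG are the widest.

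Of the nuclear RNAs, MALAT1 (ENSG00000251562, chromosome 11 at 65497762 to 65506516, plus strand, GRCh38) had 135, 127 and 136 CPM with overexpression and 187, 155 and 138 CPM in the controls, in the order of the replicate numbers, which is kept throughout. All overexpression values lay below all controls, but control replicate 3 was close to them. The means were 133 ± 4.97 and 159.9 ± 25.2 CPM (SD, n = 3 each). This is a log2 fold change of -0.27 with a 95% interval from -0.55 to 0.0034 (edgeR unadjusted p 0.0523, adjusted p 0.797). An exact two-sided permutation test gave p = 0.1, the smallest that 3 against 3 allows. Without control replicate 1 the value was -0.14.

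TUG1 (ENSG00000253352, chromosome 22 at 30970677 to 30979395, plus strand) is a transcript found in nucleus and cytoplasm that binds chromatin regulators. Its level was 214, 192 and 202 CPM with overexpression and 305, 214 and 202 CPM in the controls. Control replicate 1 alone was high and the other 2 controls fell among the overexpression values. The log2 fold change was -0.24 with an interval from -0.60 to 0.11 (edgeR adjusted p 0.797), and it was -0.034 without control replicate 1. Mitochondrial share, MALAT1 and TUG1 were all highest in that library, and whether its composition bears on these differences was not tested.

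NEAT1 (ENSG00000245532, chromosome 11 at 65422774 to 65445540, plus strand), next to MALAT1 on the chromosome, had 165, 127 and 166 CPM with overexpression and 177, 145 and 131 CPM in the controls. The groups overlapped, and the log2 fold change was 0.017 with an interval from -0.32 to 0.35 (edgeR adjusted p 0.985). The ratio of NEAT1 to MALAT1 within a library was 1.22, 1.00 and 1.22 with overexpression and 0.946, 0.935 and 0.953 in the controls. This was 1 of 4 ratios computed and the only 1 whose groups were separate. The groups overlapped in the others, TUG1 to MALAT1, OIP5-AS1 to TUG1 and SNHG1 to GAS5. The difference of these ratios between groups was not tested. A short and a long form of NEAT1 start at the same site, and only the long one builds paraspeckles, but gene counts do not part them. Of 19 paraspeckle proteins, 12 had a positive and 7 a negative log2 fold change, with a median of 0.005 and 0 called. Their values ran from -0.41 to 0.35. The overexpression libraries all lay above the controls for 3 of the 19 and all below them for 0, beside groups without overlap in 12.9% of all genes in either direction. Those with the most reads, HNRNPK, SFPQ and EWSR1, differed by 0.080, 0.053 and 0.029 on the log2 scale.

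OIP5-AS1 (ENSG00000247556, chromosome 15 at 41283990 to 41309737, plus strand) split within its group. It held 597, 687 and 1441 counts in the overexpression libraries against 1293, 1334 and 1204 in the controls. These correspond to 42.3, 49.0 and 116 CPM against 119, 114 and 99.1 CPM. Overexpression replicates 1 and 2 were thus the lowest of all libraries, while replicate 3 lay among the controls. The coefficient of variation was 59.2% with overexpression and 9.43% in the controls, where counting error at this depth is 3.03%. Among the 3924 tested genes with between 0.5 and 2 times its mean CPM, 97.9% had a smaller within-group SD on the log2 scale.

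The log2 fold change of OIP5-AS1 was -0.68 with an interval from -1.46 to 0.099 (edgeR unadjusted p 0.0794, adjusted p 0.797). Without overexpression replicate 3 it was -1.28 with an edgeR adjusted p of 0.0322, and without replicate 1 or 2 it was -0.42 and -0.48 with adjusted p of 0.979 and 0.896. Overexpression replicate 3 did not stand apart in SOX5, whose 2012 CPM there lay between the other 2. OIP5, the protein-coding gene that overlaps the 3′ end of OIP5-AS1 on the opposite strand, had 21.0, 17.0 and 20.6 CPM with overexpression and 13.6, 19.7 and 20.2 CPM in the controls. Neither it nor its nearest other neighbour was split in this way: the latter, CHP1, a calcium-binding protein gene 2.10 kb away, had 129, 131 and 120.2 CPM against 145, 121 and 136 CPM. The summed counts of OIP5-AS1 and OIP5 gave a log2 fold change of -0.53. The handling of strand is not given in the sources used here, so reads of this pair may not be parted.

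**Figure D3:**
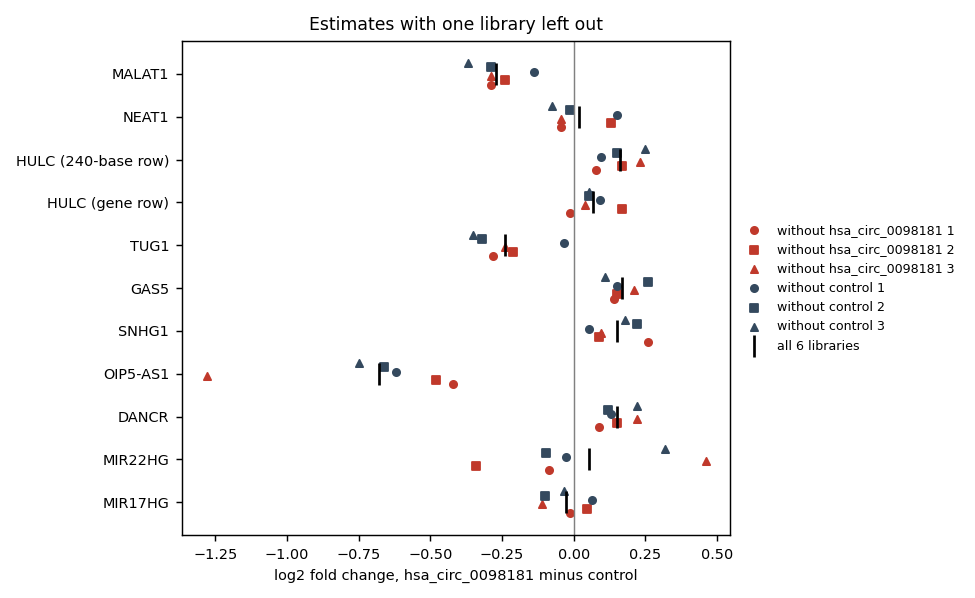
log2 fold change of each row, hsa_circ_0098181 minus control, with all 6 libraries (black bar) and with each library left out in turn (points). OIP5-AS1 moves to -1.28 without overexpression replicate 3, MIR22HG ranges from -0.34 to 0.46, and MALAT1 and TUG1 come closest to 0 without control replicate 1.

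Among the host genes of small nucleolar RNAs, GAS5 (ENSG00000234741, chromosome 1 at 173863900 to 173868882, minus strand), a transcript that accumulates in growth-arrested cells, had 94.9, 94.5 and 86.2 CPM with overexpression. The controls had 79.2, 91.5 and 74.8 CPM, of which replicate 2 lay among the overexpression values. Its log2 fold change was 0.17 with an interval from -0.071 to 0.41 (edgeR adjusted p 0.797). ZBTB37, which starts on the opposite strand within GAS5, held 1518 counts over the 6 libraries and differed by 0.14.

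SNHG1 (ENSG00000255717, chromosome 11 at 62851988 to 62855914, minus strand) had 140, 179 and 178 CPM with overexpression and 128, 164 and 156 CPM in the controls. Replicate 1 was the lowest of each group, and the groups overlapped. The log2 fold change was 0.15 with an interval from -0.15 to 0.45 (edgeR adjusted p 0.831), and it was 0.053 without control replicate 1. SLC3A2, an amino acid transporter subunit gene that starts 188 bases away on the opposite strand, had 387, 408 and 418 CPM against 227, 344 and 435 CPM, and was lowest in control replicate 1 as well.

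DANCR (ENSG00000226950, chromosome 4 at 52712404 to 52720351, plus strand), a transcript first described for holding back differentiation, had 113, 104 and 95.2 CPM with overexpression and 90.3, 89.5 and 101 CPM in the controls. Overexpression replicate 3 and control replicate 3 overlapped. The fitted log2 fold change was 0.15 with an interval from -0.077 to 0.39 (edgeR adjusted p 0.797). With all 6 libraries GAS5, SNHG1 and DANCR thus lay between 0.15 and 0.17 on the log2 scale, and their intervals reached up to 1.37-fold for SNHG1, 1.32-fold for GAS5 and 1.31-fold for DANCR. Single libraries moved all 3 values without turning their direction. GAS5 was 0.26 without control replicate 2 (edgeR unadjusted p 0.0419, adjusted p 0.672) and 0.11 without control replicate 3. SNHG1 ran from 0.053 to 0.26, the highest without overexpression replicate 1, and was 0.088 and 0.096 without overexpression replicates 2 and 3. DANCR was lowest, at 0.09, without overexpression replicate 1 and ran up to 0.22.

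Most other host genes of small nucleolar RNAs had positive values too. Of 20 listed, 17 were tested, 15 had a positive and 2 a negative log2 fold change, and 0 were called. Their median was 0.236, beside 0.0023 over all genes. Their summed level was 507, 469 and 475 CPM with overexpression and 382, 458 and 449.7 CPM in the controls. Control replicate 1 again was the lowest, and without it the median was 0.092 with 12 positive and 5 negative. SNHG6 had 117, 98.2 and 95.6 CPM against 79.4, 90.7 and 86.6 CPM, a log2 fold change of 0.28 (edgeR unadjusted p 0.0334, adjusted p 0.797). SNHG7 had 55.1, 61.4 and 55.0 CPM against 28.1, 48.4 and 45.0 CPM, a log2 fold change of 0.50 (edgeR unadjusted p 0.0284, adjusted p 0.797). SNHG16 was 1 of the 2 with a negative value, at 30.6, 29 and 30.5 CPM against 70.8, 41.6 and 29.4 CPM (log2 fold change -0.65, edgeR unadjusted p 0.0437, adjusted p 0.797), again with control replicate 1 at the extreme. SNHG3 and SNHG5, also among the 3 hosts of this list with the most reads, differed by 0.083 and 0.23. Of 19 genes for nonsense-mediated decay factors, which degrade several of these spliced hosts, 8 had a positive and 11 a negative value, 0 were called and the median was -0.010. UPF1, the central helicase of this pathway, differed by 0.058, SMG1, the kinase that acts on it, by -0.27, and SMG5 by -0.021.

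**Figure D4:**
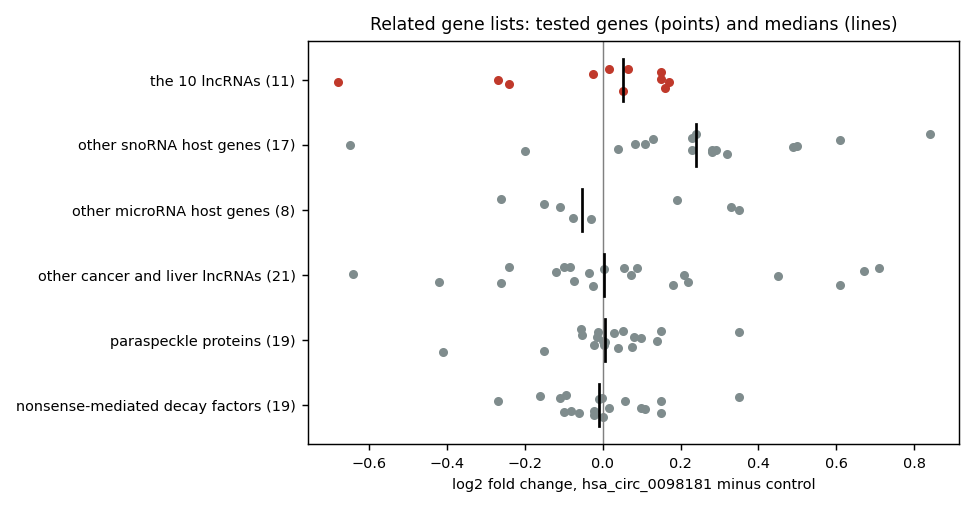
log2 fold change, hsa_circ_0098181 minus control, of every tested gene (points, numbers in brackets) in the 10 long noncoding RNAs and 5 related gene lists, with the median as a line. The other snoRNA (small nucleolar RNA) host genes have a median of 0.236, and the other 5 medians lie between -0.052 and 0.053.

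MIR22HG (ENSG00000186594, chromosome 17 at 1711493 to 1717174, minus strand) had counts of 138, 171 and 33 with overexpression and 76, 73 and 129 in the controls. These are 9.77, 12.2 and 2.67 CPM against 7.01, 6.22 and 10.6 CPM. Overexpression replicate 3 was the lowest and replicate 2 the highest of all libraries, a 4.58-fold range. The coefficient of variation was 60.3% with overexpression and 29.5% in the controls, where counting error is 9.84%. With an interval from -1.02 to 1.12, the log2 fold change of 0.053 (edgeR adjusted p 0.985) left room for a 2-fold difference either way. It was 0.46 without overexpression replicate 3 and -0.34 without replicate 2. WDR81, a protein-coding gene that overlaps MIR22HG on the opposite strand, was even at 46.9, 53.9 and 55.2 CPM against 47.0, 52.5 and 55.5 CPM.

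MIR17HG (ENSG00000215417, chromosome 13 at 91347820 to 91354579, plus strand) had the lowest mean CPM of the members. It held 82, 74 and 82 counts with overexpression against 73, 63 and 72 in the controls, or 5.81, 5.28 and 6.63 CPM against 6.74, 5.37 and 5.92 CPM. The groups overlapped, and the coefficient of variation was 11.5% in each, beside a counting error of 11.6%. The interval of its log2 fold change ran from -0.44 to 0.39 (edgeR adjusted p 0.981), which is 0.735-fold to 1.31-fold. The mature microRNAs printed above were not measured here: the table lists no gene shorter than 200 bases, and 0 of 26 small nucleolar RNA and microRNA genes within the members had a row. Of 16 other microRNA host genes, 14 had a row and 8 were tested, of which 3 had a positive and 5 a negative value with 0 called. MCM7, the replication helicase subunit gene that hosts a related cluster, had the most reads and differed by 0.19. MIR4435-2HG and DLEU2 followed, with differences of -0.11 and -0.075 on the log2 scale.

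HULC has 2 rows, a gene row (ENSG00000251164, chromosome 6 at 8652137 to 8653846) and a row of 240 bases within it (ENSG00000276019, 8653558 to 8653797, plus strand). The gene row had 9.20, 7.14 and 8.65 CPM with overexpression and 8.21, 7.83 and 7.82 CPM in the controls, a log2 fold change of 0.066 with an interval from -0.30 to 0.44 (edgeR adjusted p 0.938). The 240-base row had 11.3, 10.1 and 9.13 CPM against 8.21, 8.94 and 10.1 CPM, a log2 fold change of 0.16 with an interval from -0.20 to 0.53 (edgeR adjusted p 0.841). The value of the 240-base row was 0.077 without overexpression replicate 1, and leaving out control replicate 1 or 3 gave 0.097 or 0.25. The groups overlapped in both rows. Their summed counts were 290, 241 and 220 against 178, 197 and 218, and gave a log2 fold change of 0.12 with an interval from -0.16 to 0.39. How the reads of this RNA were divided between the rows, or whether some were counted in both, is not given in the sources used here.

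Per length of merged GENCODE 29 exons, the members fell into 4 tiers, whose borders depend on the lengths used. Mean levels over the 6 libraries, in CPM per kilobase of merged GENCODE 29 exons, were highest for DANCR (43.3), SNHG1 (42.0) and the 240-base row of HULC (40.1), whose ranges over libraries overlapped. GAS5 (23.9), TUG1 (21.8) and MALAT1 (16.6) followed, and each range overlapped the next. OIP5-AS1 (7.10) and NEAT1 (6.67) came next, also with overlapping ranges. MIR22HG (2.71) and MIR17HG (1.71) were lowest and overlapped too. Merged exons include retained introns and, for NEAT1, the whole long form, so the levels of GAS5, SNHG1 and NEAT1 are low estimates. For TUG1 and MALAT1 the merged exons (10151 and 8829 bases) are longer than the span of their rows, so their levels may be low too. With a shorter length TUG1 may pass GAS5, and its range may meet those of the highest tier. On the authors' FPKM scale the 240-base HULC row (40.1) and DANCR (36.1) were likewise highest and MIR17HG (1.06) and MIR22HG (0.839) lowest. SNHG1, at 11 FPKM, was below TUG1 there (14.3 FPKM). The border below GAS5 and MALAT1 was not kept either: their ranges (6.35 to 8.16 and 7.59 to 10.8 FPKM) met that of OIP5-AS1 (2.78 to 7.75 FPKM). The HULC gene row, which has no exons in GENCODE 29 and so no place in the tiers, had 14.6 FPKM. The high level of HULC thus rests on its 240-base row.

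The genes whose pattern over the 6 libraries was most like that of MIR17HG, by Pearson's correlation of log2(CPM + 0.5) among 9953 genes, were CCDC77 (0.975) and SLC22A23 (0.975). For HULC they were RNF145 (0.991), MED19 (0.990) and KLC2 (0.987) by the 240-base row and NRBF2 (0.972), TMEM170B (0.967) and SHROOM1 (0.958) by the gene row, so the 2 rows of 1 gene named different genes. These are the highest of many values over 6 points that share library depth, and are given as a description.

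Among 36 other long noncoding RNAs of cancer and liver, 21 were tested, 11 had a positive and 10 a negative log2 fold change, 0 were called, and the median was 0.004. LINC00657 (NORAD), which binds Pumilio proteins, had the most reads with 370.4 ± 34.5 and 393 ± 10.3 CPM (SD, n = 3 each). LINC00261, a transcript of endoderm and liver, followed with 147 ± 0.743 and 139 ± 5.28 CPM, and KCNQ1OT1, an antisense transcript of an imprinted locus, had 37.1 ± 10.2 and 44.5 ± 3.67 CPM. An unadjusted p under 0.05 was found for 4 of the 21, beside 5.50% of all genes. UCA1 had 3.82, 5.35 and 3.47 CPM with overexpression and 6.83, 4.68 and 8.31 CPM in the controls (log2 fold change -0.64, edgeR adjusted p 0.797). CCAT1 had 9.27, 11.8 and 11.2 CPM against 17.2, 14.3 and 11.7 CPM (log2 fold change -0.42, edgeR adjusted p 0.797). The overexpression libraries all lay above the controls for 5 of the 21, namely PVT1, TINCR, LINC00261, TP53TG1 and HOTAIRM1, of which the first 2 were chosen after their values were seen, and all below them for 0, beside groups without overlap in 12.9% of all genes in either direction. TP53TG1 and HOTAIRM1 were at 2.83 ± 0.457 against 1.77 ± 0.518 CPM and 3.96 ± 0.791 against 2.58 ± 0.432 CPM (SD, n = 3 each). Their log2 fold changes were 0.67 and 0.61, with an edgeR adjusted p of 0.797 for both.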

How the data were processed

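The authors deposited 1 table that holds, for each of 6 Huh7 libraries, raw counts and FPKM of every gene. Per the labels, the submitters' processing notes name TopHat2 2.0.9 and hg38. The counting tool, strand handling and annotation release are not given in the sources used here. The deposited counts are whole numbers, and the authors' FPKM values used lengths above the merged exon length for 9 of the 10 rows with exons in GENCODE 29 (16890 against 8829 bases for MALAT1) and equal to it for the 240-base HULC row. The counting errors given in percent follow from the mean count alone and leave out the spread between libraries.

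The counts were tested with edgeR 4.0.16 in R 4.3.3: filterByExpr (minimum count 10), TMM, glmQLFit and glmQLFTest with group as the term, two-sided, Benjamini-Hochberg adjusted over 15055 genes. 95% intervals used the standard error from the F statistic. Exact permutation tests used log2(CPM + 0.5). Alternatives were DESeq2 1.42.0, upper-quartile or RLE normalization, a filter at 1 count in total or at a mean of 50, limma 3.58.1 on log2(FPKM + 1) where 3 libraries or more reached 1 FPKM, the replicate number as a block, summed overlapping genes and leaving out each library. Leaving out mitochondrial genes was added after seeing the data. The tests were checked on 1 set of simulated counts with changes of 2-fold and 4-fold. edgeR recovered 77% of 100 2-fold and 97% of 100 4-fold changes, and called 14 of 14649 unchanged genes. With the replicate block these were 71%, 96% and 18 of 14649. DESeq2 gave 86%, 95% and 34 of 14855, and limma 84.5%, 99% and 13 of 13038. Smaller changes were not simulated.

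The members and lists were chosen with earlier results of these data known. Besides the members, genes were named where they were among the 3 with the most reads of a list, had an unadjusted p under 0.05, lay within 10 kb of a member, or, for MIR17HG and HULC, had the most similar pattern (3 genes a row, mean of at least 10 CPM), of which 1 is not reported here. Hepatoma markers, fibroblast, endothelial and blood cell markers served as identity checks. Sequences came from RefSeq (GRCh38.p14) and GENCODE 29. NORAD was matched by its older symbol. Same-numbered libraries did not deviate together (correlations -0.0357, -0.0231 and -0.0308 across genes), so the main test did not pair them. Whether they were handled together is not given in the sources used here, and these correlations cannot settle it.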

Additional observations from a re-analysis of the deposited data

How the results depend on the processing

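Of 161 values of single members under the alternatives, 147 kept their direction and their side of the threshold. OIP5-AS1 ran from -1.28 to -0.42 when 1 library was left out and passed only without overexpression replicate 3. The direction of 4 rows near 0 turned: MIR22HG was -0.079 with a replicate block and -0.0017 in limma, and with 1 library left out MIR22HG ran from -0.34 to 0.46, NEAT1 from -0.074 to 0.15, MIR17HG from -0.11 to 0.064 and the HULC gene row from -0.013 to 0.17. The median of the members ran from -0.014 to 0.088 in those fits. The number of members called was 0 in every alternative run except the fit without overexpression replicate 3, so 0 to 1 over the fits that left out a library, and the number with an unadjusted p under 0.05 was likewise 0 to 1 there, 2 with no filter beyond 1 count and 1 with the replicate block. Over all genes, 6 were called: DESeq2 called 27 (8 higher and 19 lower), the replicate block gave 2 higher, and leaving out 1 library gave 4 to 16 calls, 1 to 7 higher and 2 to 9 lower, the most without overexpression replicate 2 and 10 without replicate 3. The cause of these shifts was not tested. Same-numbered libraries did not deviate together across genes (correlations in the processing section), and no call of a member changed with the block. Summing overlapping genes gave no value for the 240-base HULC row. Leaving out mitochondrial genes, chosen after seeing the data, changed no call of a member. At 63 to 82 counts per library, the counting error of MIR17HG equals its spread, so depth limits what can be seen there.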
